A study of Mus musculus with 8 samples.

Results

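TRAV8 is a family of variable (V) gene segments of the T cell receptor α locus (TRA), and its chains were followed here across every repertoire of the study. A cell was counted as a member when it carried no multiplet mark and when the V call of its TRA chain began with TRAV8-, TRAV8D- or TRAV8N-, a trailing copy number being ignored. By this rule 8160 of 107882 cells with a TRA chain were members. TRAV8-1 was called in 3211 of them, TRAV8D-2 (TRAV8D-2_1 in the files) in 2380, TRAV8N-2 in 1724 and TRAV8-2 in 845. The chains came from 14 tables of CD8+ T cells from 7 mice. Each mouse gave a thymus table. The second table of a mouse held spleen cells for mouse-155A and mouse-155C and tumor cells for the 3 mouse-160 animals (A, B and C) and for the pair mouse-164B and mouse-164C.

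The study used Pdcd1fl/fl mice and Pdcd1 cKO mice, which carry Pdcd1 fl/fl and a Cre driven by the E8I enhancer of Cd8a, on a C57BL/6 background. CD8+ T cells were taken at baseline or from mice bearing B16-OVA or B16-F10 melanoma. The labels describe 8 multiplexed sublibraries and give neither the genotype nor the tumor model of a mouse, so no group was formed, nothing was tested between genotypes and every value is given per table. A table has no replicate. Intervals are exact (Clopper–Pearson) 95% binomial intervals and cover counting error only, because cells of one table are not independent samples of a condition. The files hold TRA and TRB chains only, so the CD8+ label could not be checked against marker genes. The annotation held 157654 TRA and 256941 TRB chains and no chain of another locus.

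A TRA chain is made in the thymus by joining one V segment to one joining (J) segment. The joint encodes the third complementarity-determining region (CDR3), which opens at a conserved cysteine of the V segment and closes at a conserved phenylalanine or tryptophan (F or W) of the J segment. A recombination signal follows each V segment, built of a heptamer, a spacer and a nonamer, and recombination cuts between the V segment and the heptamer. The mouse Trav cluster has been duplicated, and the letters D and N in gene names mark the duplicated copies. A joint can be remade on the same chromosome by using a V segment further upstream with a J segment further downstream.

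The V ends and signals of the family are shown first because they identify one recurrent chain described below. GENCODE places 5 Trav8 genes on the plus strand of chromosome 14 (GRCm39), in the order Trav8d-1 (chr14:53015904-53016452), Trav8d-2 (chr14:53279885-53280348), Trav8n-2 (chr14:53583347-53583881), Trav8-1 (chr14:53707213-53707689) and Trav8-2 (chr14:53975832-53976295). Trav8-2 is annotated there as a pseudogene, though its V exon, read in the frame of the conserved cysteine, held 0 stop codons. Each line gives the last 40 bases of the V segment and the 39 bases after it, with the heptamer and the nonamer in capitals.
Trav8d-1 (chr14:53016413-53016491): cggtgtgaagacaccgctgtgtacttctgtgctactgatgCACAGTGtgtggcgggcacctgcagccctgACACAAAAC
Trav8d-2 (chr14:53280309-53280387): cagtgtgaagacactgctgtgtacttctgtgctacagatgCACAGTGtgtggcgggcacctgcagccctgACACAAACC
Trav8n-2 (chr14:53583842-53583920): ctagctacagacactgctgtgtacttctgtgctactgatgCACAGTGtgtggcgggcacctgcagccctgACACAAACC
Trav8-1 (chr14:53707650-53707728): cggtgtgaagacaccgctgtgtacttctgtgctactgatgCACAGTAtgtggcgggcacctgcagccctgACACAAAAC
Trav8-2 (chr14:53976256-53976334): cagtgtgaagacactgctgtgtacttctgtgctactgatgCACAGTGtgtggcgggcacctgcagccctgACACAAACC
Trav8-1 and Trav8d-1 were identical over the last 156 bases of the V segment and differed at 3 of 285 bases of the V exon. An annotated TRAV8 chain held a median of 65 V bases, and 2 of 6584 held more than those 156. TRAV8-1 calls therefore cannot be told apart from Trav8d-1, which received no call of its own. Trav8d-2 and Trav8-2 differed at 3 of the last 66 V bases, and Trav8n-2 and Trav8-2 at 8, so calls of these copies rest on few bases. Among 79 TRAV8 clonotypes of at least 2 cells whose CDR3 ended in F or W, 7 had more than 1 V call.

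TRAV8 chains made up a similar share of most repertoires and stood apart in one. Their share of cells with a TRA chain had a median of 7.22% over the 14 tables. It was 14.1% (95% interval 13.3 to 14.9) in mouse-160C tumor, with 969 of 6884 cells. In the other tables it lay between 6.05% (5.26 to 6.92) in mouse-160A thymus and 7.98% (7.16 to 8.85) in mouse-155A thymus. Thymus tables spanned 6.05% to 7.98%. The spleen tables were at 7.22% in mouse-155A and 7.36% in mouse-155C. Of the tumor tables, mouse-160A was at 7.23%, mouse-160B at 7.94%, mouse-164B at 6.26% and mouse-164C at 7.09%. The share was higher outside the thymus in 5 of 7 animals. The intervals of the 2 tissues were apart in 3, higher in the tumor of mouse-160B and mouse-160C and lower in that of mouse-164B. Counting only TRAV8 chains ending in F or W, the intervals were apart in 3, all higher in the tumor (mouse-160A, mouse-160B and mouse-160C). By distinct chains they were apart in 1, higher in the tumor of mouse-164C. The number of animals with a higher share outside the thymus ranged from 3 with cells weighted by TRA transcripts to 6 with distinct chains as the unit.

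**Figure D1:**
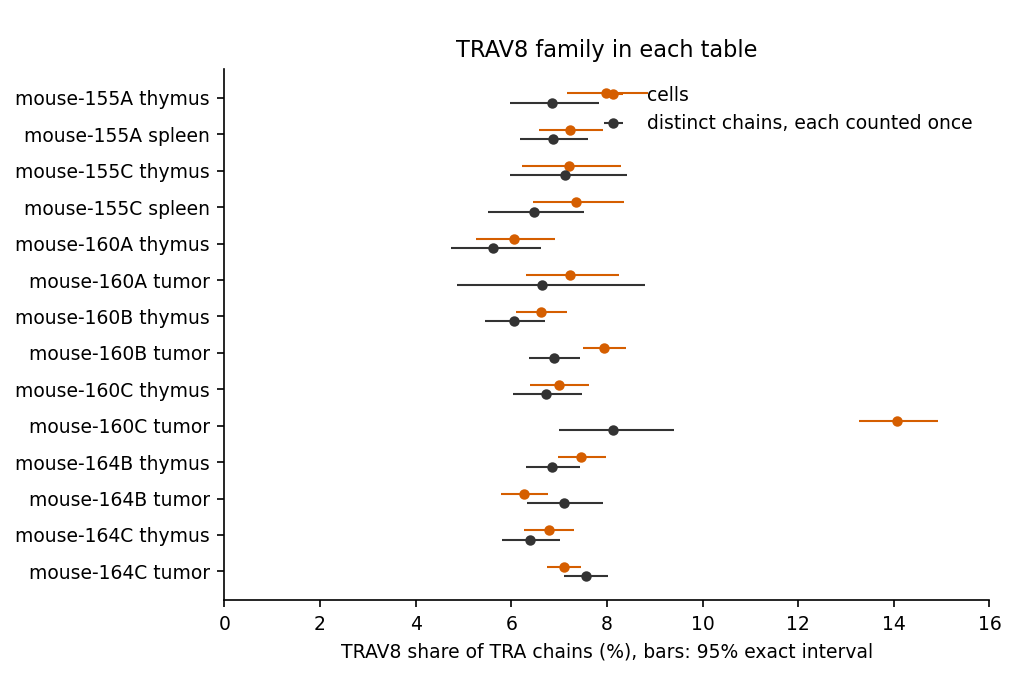
Share of TRA chains that were TRAV8 in each of the 14 tables (x axis, percent). Orange points count cells and black points count each distinct chain once; bars are exact 95% intervals. The cell share of mouse-160C tumor was 14.1%, while its distinct-chain share was 8.14%.

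Counted once per distinct chain, that is per combination of V, J and CDR3 amino acid sequence, the family spanned 5.63% in mouse-160A thymus to 8.14% (7.00 to 9.39) in mouse-160C tumor. On that scale the tumor table of mouse-160C no longer stood clear of the rest, and its interval overlapped that of its own thymus at 6.73%. The median was 6.85%. Leaving out the single most frequent TRAV8 CDR3, described below, left 346 family cells in mouse-160C tumor, or 5.03% of all its TRA cells, and 78 in mouse-160A tumor, or 2.78%. On that scale both tumors were below their own thymus, at 6.77% in mouse-160C and 5.87% in mouse-160A. This CDR3 was chosen after seeing the data. It held 64.3% of the TRAV8 cells of mouse-160C tumor and 61.6% of those of mouse-160A tumor. Its cells stayed among all TRA cells, and expanded clones of other V genes were kept. A fall was thus built in, and no conclusion is drawn from the turned direction. Depth differed between tables, with 2523 (mouse-155C thymus) to 20511 (mouse-164C tumor) TRA cells, and 45.4% to 75.7% of the TRAV8 cells of a table rested on 1 TRA transcript. The family share ranged from 6.96% to 7.93% among the 8 sublibraries.

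The 4 V calls did not contribute alike. Counting only its chains with a CDR3 ending in F or W, TRAV8-1 held 2.49% to 3.66% of all TRA cells in 13 tables and 5.27% (148 of 2806) in mouse-160A tumor. TRAV8D-2 held 1.095% to 1.98% in 13 tables and 8.93% (615 of 6884) in mouse-160C tumor. TRAV8N-2 lay between 0.356% (10 cells, mouse-160A tumor) and 2.03% (417 cells, mouse-164C tumor). TRAV8-2 was the rarest, with 147 such cells in all, at 0 cells in mouse-160A tumor and at most 0.295% (mouse-155A thymus). The 0 among 2806 cells allows a share of up to 0.107% by a limit of 3 counts, and of up to 0.131% by the exact interval. By distinct chains ending in F or W, TRAV8-1 gave 2094, TRAV8D-2 gave 1181, TRAV8N-2 gave 1147 and TRAV8-2 gave 142. A chain found in several tables was counted once in each, here and in all pooled counts of distinct chains. The 2 high cell shares were not seen by distinct chains: TRAV8-1 held 2.56% of the distinct chains of mouse-160A tumor, its lowest value over the 14 tables, and TRAV8D-2 held 1.82% of those of mouse-160C tumor.

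**Figure D2:**
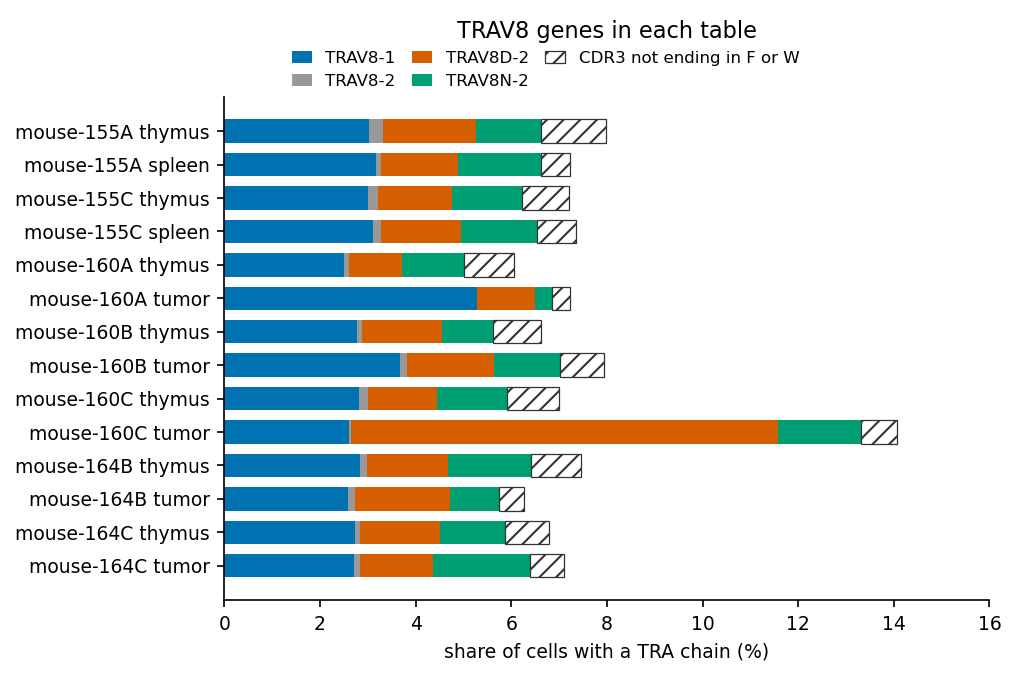
Share of cells with a TRA chain (x axis, percent) held by each TRAV8 gene in the 14 tables. Coloured bars count chains whose CDR3 ended in F or W, and the hatched bar counts all other TRAV8 chains; the TRAV8D-2 bar of mouse-160C tumor reaches 8.93%.

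Chains whose CDR3 did not end in F or W, which lack the J motif in frame, were counted apart. There were 915 among the 8160 TRAV8 cells, or 11.2% (10.5 to 11.9), against 5.26% of the 99722 cells with another TRA chain. The share differed greatly between the V calls. It was 0.623% (0.381 to 0.960) of TRAV8-1 cells, 4.16% (3.39 to 5.04) of TRAV8D-2 cells, 5.68% (4.64 to 6.88) of TRAV8N-2 cells and 82.6% (79.9 to 85.1) of TRAV8-2 cells. Of 915 such chains, 862 had the same CDR3. It was called TRAV8-2 in 693 cells, TRAV8N-2 in 87, TRAV8D-2 in 82 and TRAV8-1 in 0, and the annotation gave it TRAJ30 in all 691 annotated cells. The 0 was fixed by the definition, because Trav8-1 differs in heptamer and nonamer bases that encode this CDR3. The nucleotide sequences of this CDR3 are shown with the heptamer and the bases from the start of the nonamer in capitals.
TRAV8-2 call: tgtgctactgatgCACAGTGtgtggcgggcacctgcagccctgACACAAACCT
TRAV8D-2 call: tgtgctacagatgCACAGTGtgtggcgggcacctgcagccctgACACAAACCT
TRAV8N-2 call: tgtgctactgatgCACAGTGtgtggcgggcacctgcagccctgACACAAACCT

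These sequences run through the V end into the signal of the gene as it stands in the genome, with no joint. All 691 annotated chains with this CDR3 matched the genome without a break for at least 47 bases past the V end, with a median of 156 and a highest value of 264. Of these, 653 matched the flank of the gene they were called as. The remaining 38 were called TRAV8-2 and matched the flank of Trav8n-2 for longer. None of the 5849 annotated TRAV8 chains ending in F or W matched for more than 5 bases. The 18 annotated TRAV8-1 chains not ending in F or W matched for at most 17. The first 9 bases of Traj30 (chr14:54427323-54427381), tgacacaaa, also stand 29 bases past the V end of all 5 Trav8 genes, where the spacer meets the nonamer. The recurrent sequence thus holds no V to J joint, and 147 of the 845 TRAV8-2 cells had a CDR3 ending in F or W.

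Few transcripts of the recurrent sequence were counted per cell. It rested on 1 transcript in 90.5% of the 862 cells, with a mean of 1.12 transcripts, against 48.6% and a mean of 3.03 for the 7245 TRAV8 cells with a CDR3 ending in F or W. A TRB chain was present in 58.4% (54.98 to 61.67) of the former and 57.1% (55.97 to 58.26) of the latter. The 503 paired cells carried 482 distinct TRB CDR3 sequences, each counted once per table. A second TRA chain was recorded in 174 of the 862 cells, and in 161 of them its CDR3 ended in F or W.

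Counted as the first TRA chain of a cell, the recurrent sequence was present in every table and lower outside the thymus in all 7 animals. Chains of other V genes whose CDR3 did not end in F or W were not compared between tissues. This fall therefore has no background here and cannot be called particular to the sequence. The 218 second TRA chains with this sequence were not counted here, and which chain stood first was not compared between tissues. Its share of TRA cells was 0.895% (mouse-164C) to 1.23% (mouse-155A) in the thymus tables and 0.321% (mouse-160A tumor) to 0.898% (mouse-160B tumor) in the others. The thymus and the second tissue gave 1.23% and 0.473% in mouse-155A, 0.912% and 0.697% in mouse-155C, and 1.03% and 0.321% in mouse-160A. They gave 0.967% and 0.898% in mouse-160B, 1.08% and 0.625% in mouse-160C, 0.994% and 0.501% in mouse-164B, and 0.895% and 0.658% in mouse-164C. The ranges of the thymus and the other tables overlapped only through mouse-160B tumor. The intervals of the 2 tissues were apart in 4 of 7 animals, mouse-155A, mouse-160A, mouse-160C and mouse-164B. The share of paired TRAV8 cells in clonotypes of at least 2 cells, given below for each tumor, also differed between tables, and its part in this difference was not tested.

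**Figure D3:**
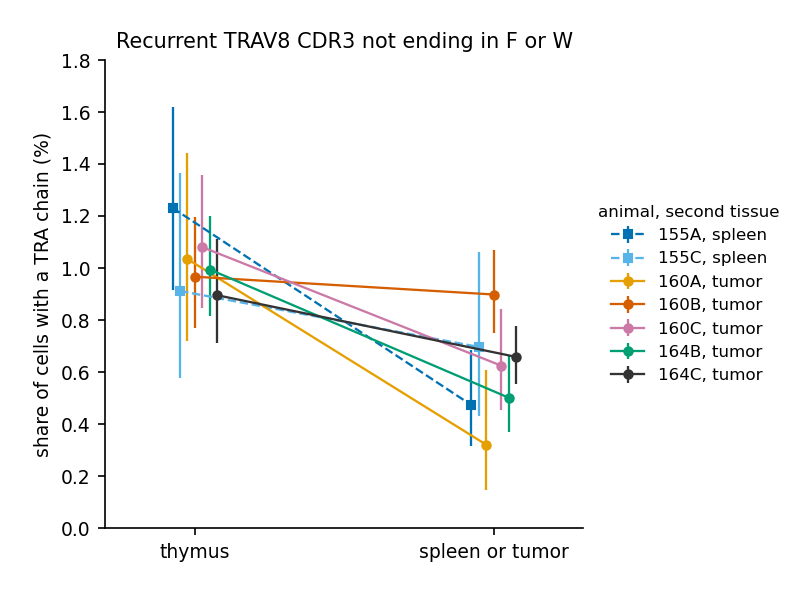
Share of cells with a TRA chain (y axis, percent) whose first TRA chain was the recurrent TRAV8 sequence running into the genomic signal. Values are for the thymus and the second tissue of each of the 7 animals. Bars are exact 95% intervals, squares mark spleen and circles tumor as the second tissue; all 7 lines fall, from 0.895% to 1.23% in the thymus to 0.321% to 0.898% outside it.

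J use followed the order of the V genes on the chromosome. TRAJ segments are numbered so that high numbers lie nearest to the V cluster. Over distinct chains ending in F or W, the median TRAJ number was 18 for TRAV8D-2, 22 for TRAV8N-2, 26 for TRAV8-1 and 43 for TRAV8-2, against 30 for all other TRA chains. Their V segments end 1112 kb (Trav8d-2), 809 kb (Trav8n-2), 685 kb (Trav8-1) and 416 kb (Trav8-2) before the first annotated TRAJ segment, Traj61. The TRAV8-1 distance does not hold for chains that came from Trav8d-1, which ends 1376 kb before it. Table medians lay between 13 and 22 for TRAV8D-2, 17.5 and 23 for TRAV8N-2, 21 and 28 for TRAV8-1, and 39.5 and 52 for TRAV8-2. TRAV8-2 thus stood apart from the other calls in every table where it was measured, while the ranges of the other calls overlapped. The TRAV8-2 table medians rest on few distinct chains, from 3 in mouse-160C tumor to 24 in mouse-164C tumor. Medians in the thymus and outside it were 17 and 18 for TRAV8D-2, 22 and 22 for TRAV8N-2, 26 and 26 for TRAV8-1, and 45 and 42 for TRAV8-2.

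**Figure D4:**
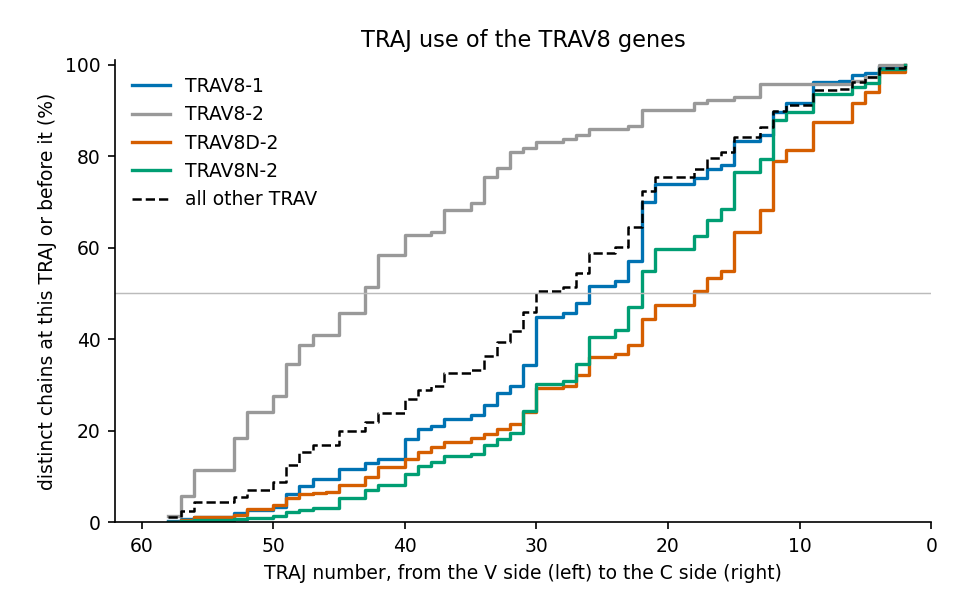
Cumulative share of distinct chains (y axis, percent) over the TRAJ number (x axis, from the V side on the left to the constant gene side on the right) for the 4 TRAV8 calls and all other TRA chains. The curves cross 50% at TRAJ43 for TRAV8-2, TRAJ30 for all other chains, TRAJ26 for TRAV8-1, TRAJ22 for TRAV8N-2 and TRAJ18 for TRAV8D-2.

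The leading J partners of the family were TRAJ22, TRAJ30 and TRAJ12. TRAJ22 was used by 9.51% (8.67 to 10.4) of 4564 distinct chains ending in F or W, against 7.85% of 62181 other TRA chains. It was higher in the family in 12 of 14 tables. Chains found in several tables were counted once in each, and the intervals treat such repeats as independent. TRAJ30 was used by 7.76% (7.00 to 8.57) against 4.63%, higher in 13 of 14 tables. TRAJ12 was used by 7.19% (6.45 to 7.97) against 3.39%, higher in 14 of 14 tables. TRAJ12 was taken most by TRAV8D-2 (10.8%) and TRAV8N-2 (8.37%), less by TRAV8-1 (4.97%), and by none of the 142 TRAV8-2 chains. TRAJ22 and TRAJ30 were taken most by TRAV8-1, at 12.9% and 10.6%. The Jensen–Shannon distance, which is 0 for identical usage and 1 for usage with nothing in common, was 0.191 between the J use of all distinct TRAV8 chains and that of all other TRA chains. In single tables it ran from 0.191 (540 TRAV8 chains, mouse-164B thymus) to 0.546 (44 chains, mouse-160A tumor), which was also the table with the fewest chains. TRAV8 CDR3 sequences were 12.96 ± 1.31 residues long (SD, 4564 distinct chains) against 13.78 ± 1.63 in the others, and 83.3% began with CAT, which the printed V ends encode.

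The distance from the rest was smaller for TRB partners than for J partners, though the 2 distances cover unlike units and numbers of genes. Distinct paired clonotypes, each a distinct pair of a TRA and a TRB CDR3, were counted once per table. Over them the distance in TRBV use was 0.0703. In single tables it ran from 0.0801 (783 TRAV8 clonotypes, mouse-164C tumor) to 0.446 (34 clonotypes, mouse-160A tumor). The leading partners of clonotypes ending in F or W were TRBV13-2 with 9.54% (8.56 to 10.6), TRBV12-1 with 9.36% (8.40 to 10.4) and TRBV3 with 8.59% (7.66 to 9.58). They held 11.97%, 8.12% and 6.58% of the clonotypes of other TRA chains. TRBV13-2 was higher in TRAV8 clonotypes in 2 of 14 tables, TRBV12-1 in 11 and TRBV3 in 13. In thymus tables pooled, TRBV13-2 held 8.90% of TRAV8 clonotypes against 13.2% of the others, and in tumor tables pooled 9.81% against 10.5%.

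The most frequent CDR3 of the family (the leading CDR3), joined to TRAJ12, was found in 1090 of 8160 TRAV8 cells (13.4%) and in all 14 tables, called TRAV8D-2, TRAV8-1 or TRAV8N-2. Its most frequent nucleotide forms are shown with the 2 bases between the germline V end and Traj12 in capitals.
TRAV8D-2, 438 annotated cells: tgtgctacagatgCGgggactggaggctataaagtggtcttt
TRAV8D-2, 198 annotated cells: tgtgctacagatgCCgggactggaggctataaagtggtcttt
TRAV8-1, 179 annotated cells: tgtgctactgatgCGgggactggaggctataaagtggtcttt
TRAV8D-2, 82 annotated cells: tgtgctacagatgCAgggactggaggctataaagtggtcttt
TRAV8N-2, 66 annotated cells: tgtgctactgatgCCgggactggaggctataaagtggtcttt
Every form shown kept all 13 bases of the V side of the CDR3 and 27 bases of Traj12 (chr14:54444010-54444067), and the forms differed in the added bases and in 1 base of the V end.

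Most of these cells came from 3 tumor tables. There were 623 in mouse-160C tumor, 9.05% (8.38 to 9.75) of its TRA cells and 64.3% of its TRAV8 cells. There were 125 in mouse-160A tumor, 4.45% (3.72 to 5.28), and 111 in mouse-160B tumor, 0.791% (0.651 to 0.952). In mouse-160C tumor 533 were called TRAV8D-2, and in mouse-160A tumor 119 were called TRAV8-1. The other 11 tables held 6 to 43 cells each, 231 in all.

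In those 11 tables this CDR3 rested on few transcripts and rarely had a TRB partner. A TRB chain was present in 33 of 231 (14.3%), against 64.8% of those in mouse-160A tumor, 44.1% in mouse-160B tumor and 56.2% in mouse-160C tumor. Of the other TRAV8 cells with a CDR3 ending in F or W, 43.6% to 67.0% had a TRB chain in the same 11 tables. For those cells the shares in the tumors of mouse-160A, mouse-160B and mouse-160C were 50.7%, 56.4% and 39.5%. At least 2 TRA transcripts stood behind 15 of the 231 cells, and behind 75, 62 and 342 cells in the tumors of mouse-160A, mouse-160B and mouse-160C. With that minimum, a setting chosen after seeing the data, the CDR3 was found in 10 tables and 6 animals. The forms frequent in the tumors recurred in the other tables, such as the TRAV8D-2 form with CG, at 362 cells in mouse-160C tumor and 12 in mouse-155A thymus. The part of cells with 1 transcript in the spread over 14 tables was not tested.

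**Figure D5:**
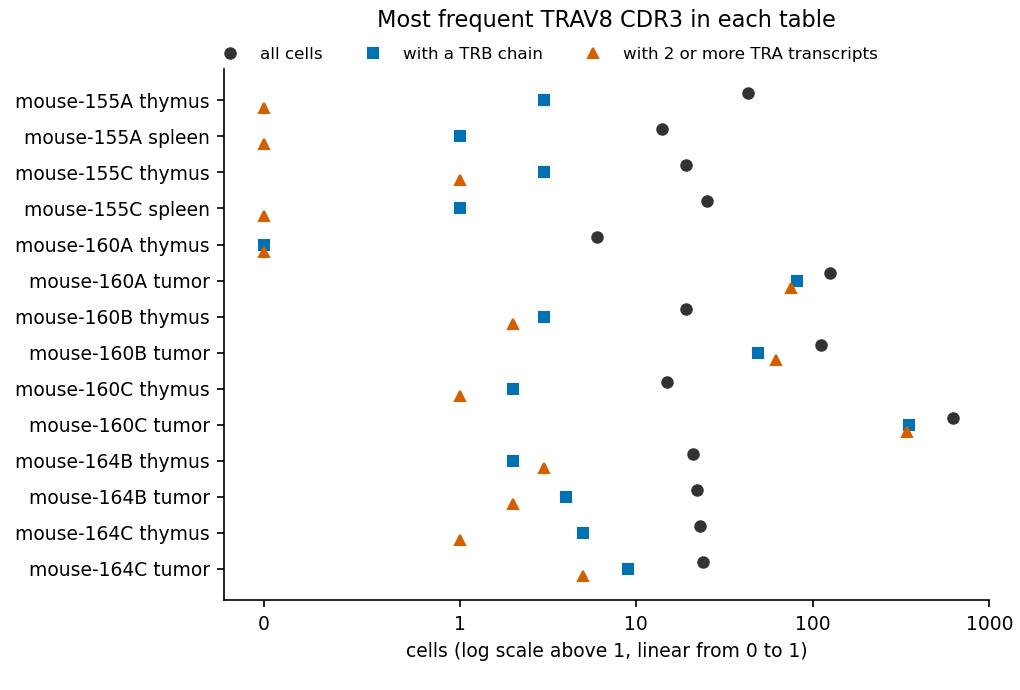
Cells with the most frequent TRAV8 CDR3 in each table (x axis, cells, log scale above 1). Circles are all such cells, squares those with a TRB chain and triangles those with at least 2 TRA transcripts; 11 tables hold 6 to 43 cells with at most 9 paired, and the tumors of mouse-160A, mouse-160B and mouse-160C hold 125, 111 and 623.

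Other CDR3 sequences were also counted in fewer animals once that minimum was set. Sharing between animals was counted for TRAV8 only, so no share of other TRA chains stands beside these values. Of 2614 distinct TRAV8 CDR3 sequences ending in F or W, 717 (27.4%) occurred in at least 2 animals and 10 in all 7. With at least 2 transcripts per chain, these were 339 of 1809 (18.7%) and 1. That one was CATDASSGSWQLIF (TRAJ22), with 74 cells in all, 42 of them with at least 2 transcripts in 12 tables. The other leading ones were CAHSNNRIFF (TRAJ31) with 171 cells, a second one with TRAJ12 with 100 and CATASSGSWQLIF (TRAJ22) with 41. With that minimum they were found in 2, 5 and 6 animals. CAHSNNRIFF was thus seen in 7 animals at any depth and in 2 at this minimum, and 116 of its cells were in mouse-164C tumor.

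In 2 tumors the leading CDR3 was mostly paired with TRB chains that shared their opening residues. This opening was chosen after its values were seen, so it is described and not tested. TRBV4 chains whose CDR3 opened with CASSYWG were paired with it in 273 of 350 paired cells (78.0%) in mouse-160C tumor and in 34 of 49 (69.4%) in mouse-160B tumor, over 5 and 2 distinct TRB chains. In mouse-160A tumor they were paired with it in 2 of 81. Read from the TRB side, TRBV4 chains with this opening were found in 375 of 66914 paired cells, and 330 (88.0%) carried a TRAV8 chain. By clonotypes the share was lower, with 13 of 52, and outside these 2 tumors 6 of 31 cells with this opening carried a TRAV8 chain. They made up 8.04% (7.19 to 8.95) of paired cells in mouse-160C tumor, 0.504% (0.364 to 0.681) in mouse-160B tumor, and 0% to 0.161% in the other tables. In mouse-160A thymus, with 0 of 2175, the count allows a share of up to 0.138% by a limit of 3 counts, and of up to 0.169% by the exact interval.

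Expanded TRAV8 clonotypes were found mainly in tumor tables. No TRAV8 clonotype reached 2 cells in 7 of 14 tables, namely both spleen tables and the thymus tables of mouse-155A, mouse-155C, mouse-160A, mouse-160C and mouse-164C. Clonotypes of at least 2 cells held 77.8% of the paired TRAV8 cells in mouse-160A tumor, 78.9% in mouse-160C tumor, 42.5% in mouse-164B tumor, 20.1% in mouse-160B tumor and 10.5% in mouse-164C tumor. They held 7.77% and 3.62% in the thymus tables of mouse-160B and mouse-164B. The same share was not computed for cells with other TRA chains. These values therefore do not tell TRAV8 apart from the rest of a table. The leading TRAV8 clonotype of mouse-160C tumor was the leading CDR3 (TRAV8D-2) with a TRBV4 and TRBJ2-2 chain with the CASSYWG opening. It held 174 of 3757 paired cells, 4.63% (3.98 to 5.35), and ranked 4 among all paired clonotypes of that tumor. In mouse-160A tumor the leading TRAV8 clonotype was the same TRA CDR3, called TRAV8-1, with a TRBV13-2 and TRBJ2-1 chain. It held 68 of 1812 paired cells, 3.75% (2.93 to 4.73), and ranked 7 among all paired clonotypes there.

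The other tumor tables had leading TRAV8 clonotypes of smaller share. In mouse-164C tumor the leading TRAV8 clonotype was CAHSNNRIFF with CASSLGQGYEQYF (TRAV8N-2, TRBV15), at 70 cells, 0.527%. In mouse-164B tumor it was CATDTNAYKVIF (TRAV8-1) with a TRBV13-2 chain, at 30 cells, 0.509%. In mouse-160B tumor 19 cells each carried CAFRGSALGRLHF (TRAV8-1) with a TRBV3 chain and the leading CDR3 (TRAV8D-2) with a TRBV4 chain with the CASSYWG opening, 0.228% each. Among thymus tables, the leading one of mouse-160B was the second TRAJ12 CDR3 (TRAV8-1) with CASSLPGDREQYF (TRBV14) at 20 cells, 0.348%, and that of mouse-164B was a TRAV8D-2 and TRAJ42 CDR3 with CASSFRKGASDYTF (TRBV14) at 7 cells, 0.0924%.

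TRAV8 clonotypes shared by the thymus and the second tissue of an animal numbered 21. The study sequenced these repertoires to ask how far T cells of the thymus contribute to those of spleen and tumor. There were 11 in mouse-164B, 6 in mouse-160B, 2 in mouse-164C, 1 each in mouse-155C and mouse-160A, and 0 in mouse-155A and mouse-160C. These were 0.546% (0.339 to 0.834) of 3843 TRAV8 clonotypes counted within animals, against 0.290% (0.245 to 0.340) of 51447 clonotypes with another TRA chain, and the intervals overlapped. In mouse-164B the shares were 1.54% (0.770 to 2.74) and 0.602% (0.459 to 0.776), which overlapped too. With at least 2 transcripts for both chains 9 of the 21 were left. The shared clonotypes with the most cells were the TRAJ42 CDR3 with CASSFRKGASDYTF (7 cells in the thymus and 27 in the tumor of mouse-164B) and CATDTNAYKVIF with the TRBV13-2 chain above (4 and 30, same animal). The same TRAJ42 CDR3 with a TRBV29 chain followed with 1 and 28, and a TRAV8D-2 and TRAJ52 CDR3 with a TRBV12-2 chain had 5 and 16, both in mouse-164B.

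In mouse-160B, the second TRAJ12 CDR3 with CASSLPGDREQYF had more cells in the thymus (20) than in the tumor (8), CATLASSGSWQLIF (TRAV8-1) with a TRBV13-2 chain had 4 and 9, and a TRAV8N-2 chain with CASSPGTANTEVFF had 1 and 5. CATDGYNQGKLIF with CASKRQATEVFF had 1 and 8 and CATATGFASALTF with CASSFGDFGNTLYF had 1 and 7 in mouse-164B. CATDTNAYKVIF (TRAV8D-2) with a TRBV15 chain, at 1 and 3 cells in mouse-160B, and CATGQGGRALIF with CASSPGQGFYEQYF, at 1 and 3 in mouse-164B, tied for the last place among the leading 10. Of the 21, 3 carried the recurrent sequence that runs into the genomic signal, so that their identity rests on the TRB chain alone. Between tables of different animals, 12 of 3828 distinct TRAV8 clonotypes were shared, 10 of them with the leading CDR3. Sharing between animals was not counted for clonotypes with other TRA chains, so the 12 have no background here. These 12 clonotypes made 22 pairs of tables, 10 of which came from 1 clonotype found in 5 tables. Of these 22 pairs, 2 had the same second-round and third-round well barcode and sublibrary in both tables.

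The V genes outside the family whose shares of distinct chains were most like those of TRAV8 over the 14 tables were TRAV5-4, TRAV14N-3 and TRAV9D-3, at distances of 0.0333, 0.0368 and 0.0384. Their own shares ranged from 2.90% to 3.73%, 1.76% to 2.49% and 3.49% to 4.83%. The likeness is a description over tables that share library and depth.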

How the data were processed

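Single-cell TCR libraries of mouse CD8+ T cells were made with the Parse Evercode TCR kit as 8 multiplexed sublibraries. The authors assembled, annotated and paired chains with the Parse pipeline on GRCm39 per the labels. Its version is not given in the sources used here, nor is the V(D)J reference. Per the file headers, the deposited barcode tables hold transcript counts per chain and cell. The deposited clonotype summaries were not used. Annotation was held only in part for mouse-160B thymus, mouse-164B thymus and mouse-164C tumor, and covered 6584 of 8160 TRAV8 cells (80.7%).

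The animal and tissue of a table come from its deposited name. Multiplets were left out as the authors marked them, and no minimum of transcripts was set. The members and lists were chosen with earlier results of these data known. Named items were every TRAV8 call, the 3 leading TRAJ and TRBV partners, the leading clonotype of each table with at least 2 cells, the leading 10 shared clonotypes, the 5 CDR3 sequences found in the most animals and the 3 most alike V genes. Flanks were matched to GRCm39 (GENCODE gene models) after 30 anchoring V bases. Alternatives changed the transcript minimum, multiplets, second chains, weighting, CDR3 end, pairing and sublibrary. The functions were tested on simulated data. Python 3.11.15, pandas 2.3.3 and SciPy 1.17.1 were used.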

Additional observations from a re-analysis of the deposited data

Results flagged for a closer look

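A TRAV8 chain was recorded as the second TRA chain of 941 cells, in a column the comparisons above do not use. The share of such cells was 0.238% to 1.29% of the TRA cells of a table, each above a limit of 3 counts, which any table with more than 3 such cells passes. TRAV8 made up 5.66% (5.32 to 6.03) of the 16613 second TRA chains and 7.56% (7.41 to 7.72) of the 107882 first ones. Of the 941, 671 had a CDR3 ending in F or W, and 287 had a TRAV8 chain as the first TRA chain too. The recurrent sequence that runs into the genomic signal made up 218 (23.2%) of these second chains.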

How the results depend on the processing

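Values were compared with the main ones. For a median share, the limit was the exact interval of the pooled cells of the middle tables. That interval ignores the spread between tables. For a count or distance, the limit was 1.5 times. The median family share of 7.22% moved to 8.82% when cells were weighted by TRA transcripts and to 6.50% with paired cells only. Without the leading CDR3, a setting chosen after seeing the data, it was 6.57%. The median for TRAV8-1 (2.82%) moved to 3.44% with at least 2 transcripts, 3.15% by distinct chains and 4.43% by transcripts. That for TRAV8-2 (0.871%) moved to 0.297%, 0.228% and 0.470% under the same settings and to 0.146% with CDR3 ending in F or W only. That for TRAV8D-2 (1.75%) moved to 1.53% with paired cells only and 1.47% without the leading CDR3, and that for TRAV8N-2 (1.52%) to 1.796% with at least 2 transcripts. The number of animals with a higher share outside the thymus (5) fell to 3 by transcripts. The median share of TRAV8 chains not ending in F or W (12.5%) moved to 2.07% with at least 2 transcripts, 2.01% by distinct chains, 5.31% by transcripts and 14.3% without the leading CDR3. With every cell counted, the TRAJ distance rose from 0.191 to 0.372 and the TRBV distance from 0.0703 to 0.166. Shared clonotypes fell from 21 to 9 with at least 2 transcripts for both chains. The other 131 comparisons stayed within these limits. Many of them kept most cells of the main setting, and a count of 5 animals could not exceed its limit among 7. Their number is therefore no measure of how stable the results are.

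With each sublibrary left out in turn, the family median ranged from 7.05% to 7.26%, TRAV8-1 from 2.80% to 2.89%, TRAV8-2 from 0.840% to 0.911%, TRAV8D-2 from 1.71% to 1.78% and TRAV8N-2 from 1.49% to 1.56%. The number of animals ranged from 4 to 5, the share not ending in F or W from 11.7% to 12.9%, the TRAJ distance from 0.191 to 0.196, the TRBV distance from 0.0677 to 0.0743 and the shared clonotypes from 17 to 19. The replicate numbers of the labels gave no pairs, because they mark sublibraries, each with cells of all 7 animals, and no groups. The thymus and second tissue of each of the 7 animals were compared within the animal, with counts of direction and no test over animals.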
